A study of Homo sapiens with 6 samples.

Results

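Cholesterol is built from acetyl-CoA through the mevalonate pathway, and the genes of its synthesis were followed here in cardiomyocytes derived from human pluripotent stem cells (hiPSC-CMs) and exposed to alcohol. The set held 27 of the 21134 genes in the expression table. They were picked by gene symbol from what the genes are known to do, but with earlier results of these data known. They are 20 enzymes of the route from acetyl-CoA to cholesterol, 6 genes of the machinery that controls them through the transcription factor SREBP2, and STARD4, a carrier of sterol between membranes. All 27 were listed and all 27 passed the filter on low counts, so that every one of them was tested. Their expected counts, which are estimates of reads and need not be whole, ran from 45.2 for HSD17B7 to 3103 for HMGCS1 in single libraries.

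RNA sequencing covered 6 libraries in 3 groups of 2, and each group was labelled as repeat 1 and repeat 2. Control hiPSC-CMs had no treatment, alcohol hiPSC-CMs had 100 mM alcohol for 24 h, and co-treated hiPSC-CMs had 100 mM alcohol with 1 μM losartan, a blocker of the angiotensin receptor AT1R, for 24 h. All libraries came from the line H9 (a single line, known as one of human embryonic stem cells although the labels call the cells induced pluripotent), so the error is that between libraries of 1 line, and it may be technical because no source says whether the repeats were separate cultures. A group with losartan and no alcohol was not analysed here, and no mutation or transgene is named in any group. The expected counts of a library summed to between 4898287 and 5051448. All 10 cardiomyocyte markers checked were detected in every library, and their FPKM (reads per length of gene and per depth of library) summed to between 20261 and 29547. Of markers of other cells, 2 of 4 of endothelium (PECAM1 and CDH5), 2 of 7 of hepatocytes or endoderm (APOB and FOXA2), 1 of 8 of fibroblasts (TCF21), 1 of 5 of pluripotent cells (SOX2) and none of the 4 of smooth muscle stayed under 1 FPKM in every library. The rest of these markers reached 1 FPKM in at least 1 library.

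The mevalonate pathway turns acetyl-CoA into isoprenoid units, which are joined to squalene, closed to the first sterol, lanosterol, and trimmed to cholesterol. Its genes are switched on together by SREBP2. SCAP escorts SREBP2 from the endoplasmic reticulum to the Golgi, where the proteases encoded by MBTPS1 and MBTPS2 release the active factor, and the INSIG proteins hold SCAP back when sterol is plentiful. INSIG1 is itself a target of SREBP2.

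Because SREBP2 acts at promoters, the promoters of the members were read first. A window of 300 bases, from 250 before to 50 after a transcript start, was found in RefSeq (GRCh38.p14) for 24 of the 27 members, the other 3 being ACAT2, FDFT1 and SQLE. For 19 of the 24 that start was the outermost start of the gene, and for MVK, PMVK, CYP51A1, DHCR7 and SCAP it lay 326 to 5939 bases inside it (522 for MVK), so that their windows may miss other promoters of the gene. Both strands were searched for the letters TCACNCCAC, the core of the classical sterol regulatory element, for CCAAT, the box bound by NF-Y, and for GGGCGG, the box bound by Sp1. The windows of SREBF2 and HMGCS1 follow, SREBF2 as the member with the sterol core and HMGCS1 as the member without it that had the smallest p in the comparison of all alcohol-exposed libraries with control. The windows of MVK and NSDHL were added after the motif counts were seen, as those with the most CCAAT boxes. Capitals mark the sterol core and the CCAAT boxes, which read ATTGG where the box lies on the opposite strand. The windows lie at chr22:41832855-41833154 on the plus strand for SREBF2, at chr5:43313363-43313662 on the minus strand for HMGCS1, at chr12:109573544-109573843 on the plus strand for MVK and at chrX:152830813-152831112 on the plus strand for NSDHL, and each is written in the direction of its gene.
SREBF2: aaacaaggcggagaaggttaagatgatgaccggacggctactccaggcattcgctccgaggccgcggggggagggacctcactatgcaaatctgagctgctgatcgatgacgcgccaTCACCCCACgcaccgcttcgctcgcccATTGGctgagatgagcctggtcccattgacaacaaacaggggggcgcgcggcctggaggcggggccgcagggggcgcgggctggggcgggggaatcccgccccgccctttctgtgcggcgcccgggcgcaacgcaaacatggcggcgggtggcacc
HMGCS1: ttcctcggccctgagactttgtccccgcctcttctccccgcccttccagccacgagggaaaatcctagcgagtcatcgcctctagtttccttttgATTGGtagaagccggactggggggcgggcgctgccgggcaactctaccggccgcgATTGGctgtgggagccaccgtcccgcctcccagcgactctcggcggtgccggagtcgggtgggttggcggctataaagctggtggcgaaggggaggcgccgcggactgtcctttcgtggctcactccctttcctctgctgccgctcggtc
MVK: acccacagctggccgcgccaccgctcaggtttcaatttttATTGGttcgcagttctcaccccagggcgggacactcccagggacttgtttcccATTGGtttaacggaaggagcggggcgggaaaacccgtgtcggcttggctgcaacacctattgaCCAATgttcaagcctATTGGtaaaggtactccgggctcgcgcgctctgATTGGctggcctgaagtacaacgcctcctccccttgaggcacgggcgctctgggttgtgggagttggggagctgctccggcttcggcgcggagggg
NSDHL: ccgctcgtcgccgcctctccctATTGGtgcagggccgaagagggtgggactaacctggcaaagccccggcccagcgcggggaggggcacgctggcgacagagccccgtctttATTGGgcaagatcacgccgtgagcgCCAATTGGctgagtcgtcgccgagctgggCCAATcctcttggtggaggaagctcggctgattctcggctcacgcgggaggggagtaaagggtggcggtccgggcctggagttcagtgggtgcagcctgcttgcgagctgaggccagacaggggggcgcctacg

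The sterol core was found in 1 of the 24 windows (4.17%), that of SREBF2 itself, as TCACCCCAC on the plus strand with its first base at -133 from that start. Among all 27305 promoters of that RefSeq set 1.15% held it. CCAAT was more frequent: 15 of the 24 members (62.5%) had at least 1 box, against 35.7% of all promoters and 36.3% of the promoters of genes tested here. At least 3 boxes were found in 6 of 24 members (25.0%) and in 3.42% of all promoters. MVK and NSDHL had 5 or more, a number reached in 0.403% of all promoters. The boxes in NSDHL include a CCAAT and an ATTGG that share bases and were counted as separate boxes. GGGCGG was found in 19 of 24 members (79.2%), in 44.6% of all promoters and in 67.6% of those of genes tested. These are matches of letters in a short window, and sites further from these starts or with other letters were not searched.

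The first question was how alcohol, with or without losartan, bore on the level of the pathway as a whole. Added up, the FPKM of the 20 enzymes came to 836 and 992 in control hiPSC-CMs, 685 and 562 with alcohol, and 656 and 722 with alcohol and losartan. Every exposed library thus lay below both controls, and the alcohol and co-treated libraries overlapped. The mean was 914 ± 110 for control, 624 ± 86.8 for alcohol and 689 ± 47.0 for co-treated hiPSC-CMs (SD, n = 2 each), which is -31.8% with alcohol and -24.6% with co-treatment against control. With 2 libraries a group the smallest p that an exact two-sided permutation test allows is 0.333, so no test was made on the sum. In bulk RNA, fewer cells of a type and less RNA per cell cannot be told apart.

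**Figure D1:**
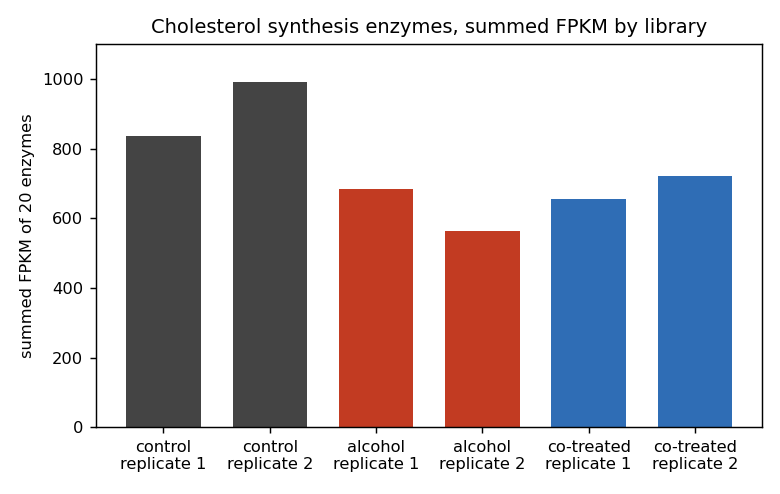
The bars give the summed FPKM of the 20 cholesterol synthesis enzymes in each of the 6 libraries, with control in grey, alcohol in red and co-treated in blue. The control libraries stand at 836 and 992, and the 4 alcohol-exposed libraries between 562 and 722.

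Gene by gene, edgeR's quasi-likelihood test was fitted over 14926 genes, and a gene was called at an adjusted p under 0.05. With alcohol alone none of the 27 members was called (0.067% of all genes were), while 22 had a lower mean and 5 a higher one. At an unadjusted p under 0.05, 16 members were lower (59.3%, against 5.78% of all genes), and 1 was higher, SCAP (3.70%, against 5.27% of all genes). Both alcohol libraries lay below both controls in FPKM for 17 members (63.0%), against 17.7% of all genes. The median log2 fold change of the members was -0.45, while that of all genes was -0.0033. DESeq2 called 5 members in the same comparison (ACAT2, IDI1, FDPS, FDFT1 and MSMO1), all lower, and limma on log2(FPKM + 1) called 0. Of all genes DESeq2 called 72, against 10 by edgeR. With 1 library left out the median log2 fold change of the members ran from -0.65 to -0.28.

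In co-treated hiPSC-CMs against control, again none of the members was called by edgeR (0.362% of all genes were), nor by DESeq2 or limma. At an unadjusted p under 0.05, 15 members were lower (55.6%, against 6.37% of all genes) and 2 were higher, INSIG2 and MBTPS1 (7.41%, against 6.26% of all genes). Both co-treated libraries lay below both controls for 18 members (66.7%, against 16.3% of all genes), and the median log2 fold change was -0.40. Without either one of the alcohol libraries, which enter the shared estimate of the spread, 4 members were called (ACAT2, HMGCS1, MVD and MSMO1). The alcohol and co-treated comparisons share the control libraries, so their values stand side by side here and are not evidence of each other.

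All 4 alcohol-exposed libraries together were then set against control. HMGCS1 and FDFT1, which make HMG-CoA and squalene, fell and were called, 2 of 27 members (7.41%) against 0.556% of all genes. At an unadjusted p under 0.05, 16 members were lower (59.3%, against 7.05% of all genes) and 1 was higher, SCAP (3.70%, against 6.48% of all genes). For 15 members (55.6%) all 4 exposed libraries lay below both controls, which held for 8.39% of all genes, and the median log2 fold change was -0.46. With 1 library left out the log2 fold change ran from -1.07 to -0.77 for HMGCS1 and from -0.69 to -0.50 for FDFT1. Their calls did not hold with each library left out, as given by gene below. The median of the members then ran from -0.56 to -0.25.

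Libraries of 1 group differed in these genes. Control replicate 2 was higher than control replicate 1 in 23 of the 27 members, with a median difference of 0.18 on the log2 scale, and alcohol replicate 2 was lower than alcohol replicate 1 in 21, with a median difference of -0.33. Across the 6 libraries control replicate 2 was the highest for 18 members and alcohol replicate 2 the lowest for 16. The medians of these differences over all genes were 0.0015 in control and 0.0022 in alcohol. The number of members lower at an unadjusted p under 0.05 was smaller without some of these libraries, in fits where 1 group held 1 library. The median log2 fold change of the members without control replicate 2 was -0.33 with alcohol, -0.26 with co-treatment and -0.25 over all exposed libraries, and without alcohol replicate 2 it was -0.28 with alcohol.

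Sums of cell markers also varied between these libraries. Summed FPKM of the 4 smooth muscle markers was 1926 and 1689 for control, 1451 and 722 for alcohol and 991 and 1036 for co-treated libraries. The 5 cycling markers summed to 103 and 196 for control, 73.3 and 100.4 for alcohol and 153 and 119 for co-treated libraries. The 10 cardiomyocyte markers summed to 28668 and 29547 for control, 27020 and 20261 for alcohol and 23063 and 25489 for co-treated libraries. The smooth muscle and cardiomyocyte sums were below both controls in every exposed library, and the cycling sum in the alcohol libraries. The cardiomyocyte sum was lowest in alcohol replicate 2. Of its 20261 there, MYL7 alone had 9321 FPKM, against 14512 and 16180 in control. With alcohol 5 of the 10 cardiomyocyte markers had a lower mean and 5 a higher one. With co-treatment 8 were lower and 2 higher, and over all exposed libraries 7 were lower and 3 higher. Other sums were above both controls in every exposed library. The 8 fibroblast markers summed to 465 and 421 for control and to between 467 and 518 in exposed libraries, the 7 of hepatocytes or endoderm to 40.2 and 38.9 for control and 49.5 to 51.9 in exposed ones, and the 4 of endothelium to 6.84 and 5.77 for control and 7.36 to 10.5 in exposed ones. Genes within these lists did not all go one way. Over all exposed libraries, 2 of 7 fibroblast markers tested, 1 of 5 of hepatocytes or endoderm and 2 of 4 of endothelium had a lower mean. The largest part of the endothelial sum was KDR, with a log2 fold change of 0.71, while TEK stood at -0.43. The 5 pluripotent markers summed to between 10.4 and 19.3, with the groups overlapping. The part of cell makeup in the values of the sterol genes was not tested.

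**Figure D2:**
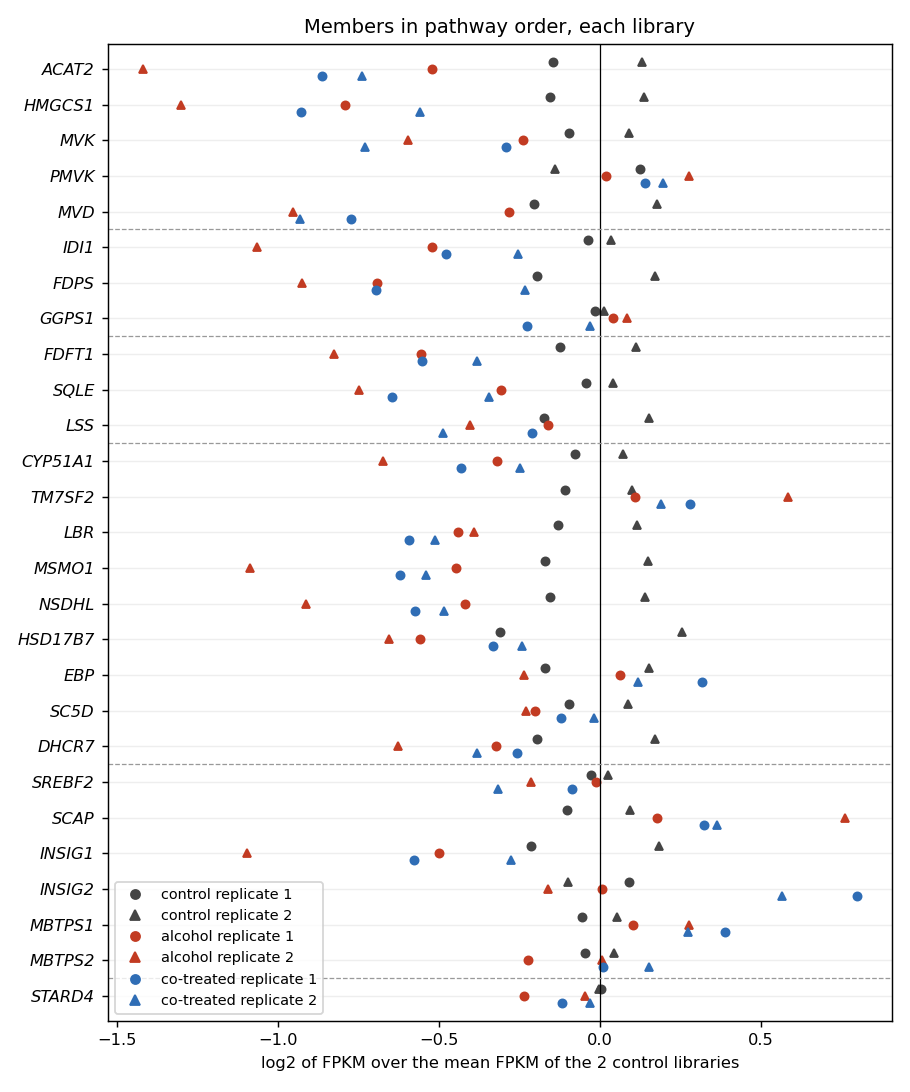
Each row is a member in pathway order and each point a library, placed at the log2 of its FPKM over the mean FPKM of the 2 controls. Circles are replicate 1 and triangles replicate 2, and dashed lines part the roles. Most rows of enzymes have the red and blue points left of both grey ones, and in 14 of the 20 the red triangle of alcohol replicate 2 is furthest left.

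The route begins with the enzymes that build HMG-CoA, the precursor of mevalonate. HMGCS1, the cytosolic synthase that joins acetoacetyl-CoA with acetyl-CoA, lies on chromosome 5 (43287470 to 43313412, GRCh38.p14). It had 92.0 and 113 FPKM in the control libraries, 59.1 and 41.5 in the alcohol libraries and 53.8 and 69.4 in the co-treated libraries. Every exposed library was below both controls, and the lowest was alcohol replicate 2. By edgeR its log2 fold change was -1.05 (SE 0.19, adjusted p = 0.0547) with alcohol and -0.78 (SE 0.19, adjusted p = 0.0911) with co-treatment. Over all exposed libraries HMGCS1 fell by 47.0%, with a log2 fold change of -0.91 (SE 0.16, adjusted p = 0.0267). That adjusted p became 0.146 without control replicate 2, 0.117 without co-treated replicate 1, 0.113 without co-treated replicate 2 and 0.0612 with no filter on low counts, and over all 14 alternatives it ran from 0.0009 to 0.146.

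ACAT2, the thiolase that makes acetoacetyl-CoA for HMGCS1, had 47.2 and 57.2 FPKM in the control libraries, 36.4 and 19.5 in the alcohol libraries and 28.7 and 31.3 in the co-treated libraries. Its groups of exposed libraries did not overlap with control either, and alcohol replicate 2 was again the lowest. The edgeR log2 fold change was -0.91 (SE 0.22, adjusted p = 0.149) with alcohol, -0.83 (SE 0.22, adjusted p = 0.123) with co-treatment and -0.87 (SE 0.19, adjusted p = 0.0574) over all exposed libraries. Without alcohol replicate 1 the value with alcohol was -1.43, and with that library kept and alcohol replicate 2 left out it was -0.51. ACAT2 shares 615 bases with TCP1 on the genome, and whether the reads were counted by strand is not given in the sources used here. TCP1 stood at 65.1 and 64.4 FPKM in control and at 56.9 and 57.9 with alcohol.

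The steps from mevalonate to the first isoprenoid unit are 2 kinases, MVK and PMVK, and a decarboxylase, MVD. MVK had 13.99 and 15.9 FPKM in the control libraries, 12.7 and 9.90 in the alcohol libraries and 12.2 and 9.01 in the co-treated libraries. All exposed libraries were below both controls, with an edgeR log2 fold change of -0.43 (SE 0.20, adjusted p = 0.438) with alcohol and -0.57 (SE 0.20, adjusted p = 0.251) with co-treatment. Without alcohol replicate 1 the alcohol value of MVK was -0.65, and it was -0.23 when alcohol replicate 2 was left out. MVK shares 233 bases with MMAB, whose log2 fold change with alcohol was -0.13. MVD had 23.9 and 31.1 FPKM in the control libraries, 22.6 and 14.2 in the alcohol libraries and 16.1 and 14.4 in the co-treated libraries. Its log2 fold change by edgeR was -0.61 (SE 0.21, adjusted p = 0.301) with alcohol and -0.90 (SE 0.22, adjusted p = 0.0949) with co-treatment, and alcohol replicate 1 lay close under the lower control. Without alcohol replicate 1 the alcohol value of MVD was -1.02, and without alcohol replicate 2 it was -0.28. PMVK, between MVK and MVD in the route, had 30.8 and 25.7 FPKM in the control libraries, 28.7 and 34.3 in the alcohol libraries and 31.2 and 32.4 in the co-treated libraries. Its alcohol libraries overlapped with control, and its log2 fold change was 0.11 with alcohol and 0.12 with co-treatment, each with an edgeR adjusted p of at least 0.808.

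IDI1, FDPS and GGPS1 handle the isoprenoid diphosphates. IDI1, the isomerase that makes the starter unit, had 37.5 and 39.4 FPKM in the control libraries, 26.8 and 18.4 in the alcohol libraries and 27.6 and 32.2 in the co-treated libraries. The alcohol libraries were below the co-treated ones and both groups were below control. By edgeR the log2 fold change of IDI1 was -0.82 (SE 0.17, adjusted p = 0.108) with alcohol and -0.42 (SE 0.17, adjusted p = 0.320) with co-treatment, and co-treated minus alcohol was 0.40 (SE 0.17, adjusted p = 0.892). The alcohol value was -0.54 without alcohol replicate 2, where co-treated minus alcohol was 0.12. That difference was 0.73 without alcohol replicate 1, and leaving out co-treated replicate 2 made it 0.26. FDPS, which builds farnesyl diphosphate, the branch point to sterols, had 103 and 133 FPKM in the control libraries, 73.2 and 62.2 in the alcohol libraries and 73.1 and 101 in the co-treated libraries. Its log2 fold change was -0.85 (SE 0.17, adjusted p = 0.105) with alcohol and -0.49 (SE 0.17, adjusted p = 0.251) with co-treatment by edgeR, and co-treated replicate 2 lay just under the lower control. The co-treated value of FDPS was -0.30 without control replicate 2 and -0.26 without co-treated replicate 1, and leaving out co-treated replicate 2 made it -0.76. IDI1 overlaps the antisense gene IDI2-AS1, which stood under 5 FPKM in every library. RUSC1-AS1 overlaps FDPS by 3812 bases of their whole spans on the genome and had a log2 fold change of -0.87 with alcohol. How far reads of the pair could be told apart was not tested.

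GGPS1 takes farnesyl diphosphate to geranylgeranyl diphosphate for the lipid tails of proteins. It had 18.7 and 19.0 FPKM in the control libraries, 19.4 and 20.0 in the alcohol libraries and 16.1 and 18.5 in the co-treated libraries, and its log2 fold change was 0.03 with alcohol and -0.17 with co-treatment, with edgeR adjusted p of 0.969 and 0.671. Set against each other within a library, FDPS was 5.52 and 6.996 times GGPS1 with no treatment, 3.77 and 3.11 times in alcohol and 4.53 and 5.44 times in co-treated libraries, in FPKM. All exposed libraries lay below both controls in this ratio.

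Squalene is made and closed to lanosterol by FDFT1, SQLE and LSS. FDFT1, squalene synthase, had the highest level of the members, a mean of 119 FPKM in control. It had 109.5 and 129 FPKM in the control libraries, 81.2 and 67.3 in the alcohol libraries and 81.3 and 91.5 in the co-treated libraries. No exposed library reached a control, and with all of them together FDFT1 fell by 34.1%, with an edgeR log2 fold change of -0.60 (SE 0.12, adjusted p = 0.0441). The values were -0.70 (SE 0.14, adjusted p = 0.0924) with alcohol alone and -0.51 (SE 0.14, adjusted p = 0.133) with co-treatment. The call over all exposed libraries was lost without control replicate 1 (adjusted p = 0.0708), control replicate 2 (0.308), alcohol replicate 2 (0.0862), co-treated replicate 1 (0.133) and co-treated replicate 2 (0.133).

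SQLE, squalene epoxidase, a rate-limiting step of the route, had 34.9 and 37.0 FPKM in the control libraries, 29.1 and 21.4 in the alcohol libraries and 23.01 and 28.3 in the co-treated libraries. All exposed libraries of SQLE were below both controls. Its edgeR log2 fold change was -0.54 (SE 0.17, adjusted p = 0.241) with alcohol and -0.53 (SE 0.16, adjusted p = 0.194) with co-treatment. Without alcohol replicate 1 the alcohol value was -0.81, and leaving out alcohol replicate 2 made it -0.30. LSS, which folds the epoxide into lanosterol, had 39.6 and 49.6 FPKM in the control libraries, 39.9 and 33.7 in the alcohol libraries and 38.5 and 31.8 in the co-treated libraries. Alcohol replicate 1 lay above control replicate 1, so the groups overlapped for LSS, and the log2 fold change was -0.32 (SE 0.14, adjusted p = 0.423) with alcohol and -0.41 (SE 0.14, adjusted p = 0.251) with co-treatment by edgeR. Without control replicate 2 these were -0.16 and -0.26, and without alcohol replicate 2 the first was -0.17.

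Lanosterol loses 3 methyl groups on its way to cholesterol. CYP51A1, the demethylase at C14, had 45.6 and 50.6 FPKM in the control libraries, 38.5 and 30.2 in the alcohol libraries and 35.7 and 40.5 in the co-treated libraries. Exposed and control libraries did not overlap, and edgeR gave a log2 fold change of -0.54 (SE 0.15, adjusted p = 0.185) with alcohol (-0.33 without alcohol replicate 2) and -0.40 (SE 0.15, adjusted p = 0.271) with co-treatment. The double bond that CYP51A1 leaves is reduced by either of a pair of enzymes, LBR of the nuclear envelope and TM7SF2 of the endoplasmic reticulum. LBR had 16.9 and 20.1 FPKM in the control libraries, 13.6 and 14.1 in the alcohol libraries and 12.3 and 13.0 in the co-treated libraries. The exposed libraries of LBR lay close together and below both controls, with log2 fold changes by edgeR of -0.45 (SE 0.14, adjusted p = 0.226) with alcohol and -0.60 (SE 0.14, adjusted p = 0.0814) with co-treatment. TM7SF2 had 18.3 and 21.1 FPKM in the control libraries, 21.2 and 29.5 in the alcohol libraries and 23.9 and 22.5 in the co-treated libraries, all exposed libraries being above both controls, and its log2 fold change was 0.34 with alcohol and 0.20 with co-treatment, with edgeR adjusted p of 0.496 and 0.700. The pair thus lay on opposite sides of control, and the ratio of LBR to TM7SF2 in FPKM was 0.927 and 0.952 for control, 0.642 and 0.478 for alcohol and 0.514 and 0.578 for co-treated libraries.

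MSMO1, NSDHL and HSD17B7 take off the methyl groups at C4. MSMO1, the oxidase, had 66.8 and 83.4 FPKM in the control libraries, 55.1 and 35.4 in the alcohol libraries and 48.8 and 51.7 in the co-treated libraries. NSDHL, the dehydrogenase, had 33.2 and 40.7 FPKM in the control libraries, 27.7 and 19.6 in the alcohol libraries and 24.8 and 26.4 in the co-treated libraries. In both genes the exposed libraries were below both controls and alcohol replicate 2 was the lowest. The edgeR log2 fold change of MSMO1 was -0.78 (SE 0.19, adjusted p = 0.151) with alcohol and -0.61 (SE 0.19, adjusted p = 0.200) with co-treatment. That of NSDHL was -0.68 (SE 0.18, adjusted p = 0.179) with alcohol and -0.58 (SE 0.18, adjusted p = 0.205) with co-treatment. Without alcohol replicate 2 the alcohol values were -0.44 for MSMO1 and -0.42 for NSDHL, and without alcohol replicate 1 that of MSMO1 was -1.20. HSD17B7, the reductase, was the member with the lowest level and had 8.71 and 12.9 FPKM in the control libraries, 7.34 and 6.86 in the alcohol libraries and 8.58 and 9.14 in the co-treated libraries. The co-treated libraries of HSD17B7 overlapped with control, and its edgeR log2 fold change was -0.65 (SE 0.25, adjusted p = 0.347) with alcohol (-0.41 without control replicate 2) and -0.28 (SE 0.24, adjusted p = 0.697) with co-treatment.

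The last steps are those of EBP, SC5D and DHCR7. DHCR7, the reductase of the last step in one branch of the route, had 21.6 and 27.9 FPKM in the control libraries, 19.8 and 16.04 in the alcohol libraries and 20.7 and 19.0 in the co-treated libraries. Its exposed libraries were below both controls, and edgeR gave -0.50 (SE 0.16, adjusted p = 0.266) with alcohol and -0.36 (SE 0.16, adjusted p = 0.375) with co-treatment as log2 fold changes. Without control replicate 2 these were -0.31 and -0.19, and without alcohol replicate 2 the first was -0.32. EBP, the isomerase, ranged from 15.7 to 22.97 FPKM with control, alcohol and co-treated libraries overlapping. SC5D, the desaturase, ranged from 52.4 to 65.2 FPKM. The log2 fold changes with alcohol were -0.11 for EBP and -0.25 for SC5D, with edgeR adjusted p of 0.887 and 0.464. Of the 20 enzymes, 15 were lower with alcohol (75.0%, against 5.78% of all genes) and 14 with co-treatment (70.0%, against 6.37%) at an unadjusted p under 0.05, and PMVK, GGPS1, TM7SF2, EBP and SC5D were in neither count.

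**Figure D3:**
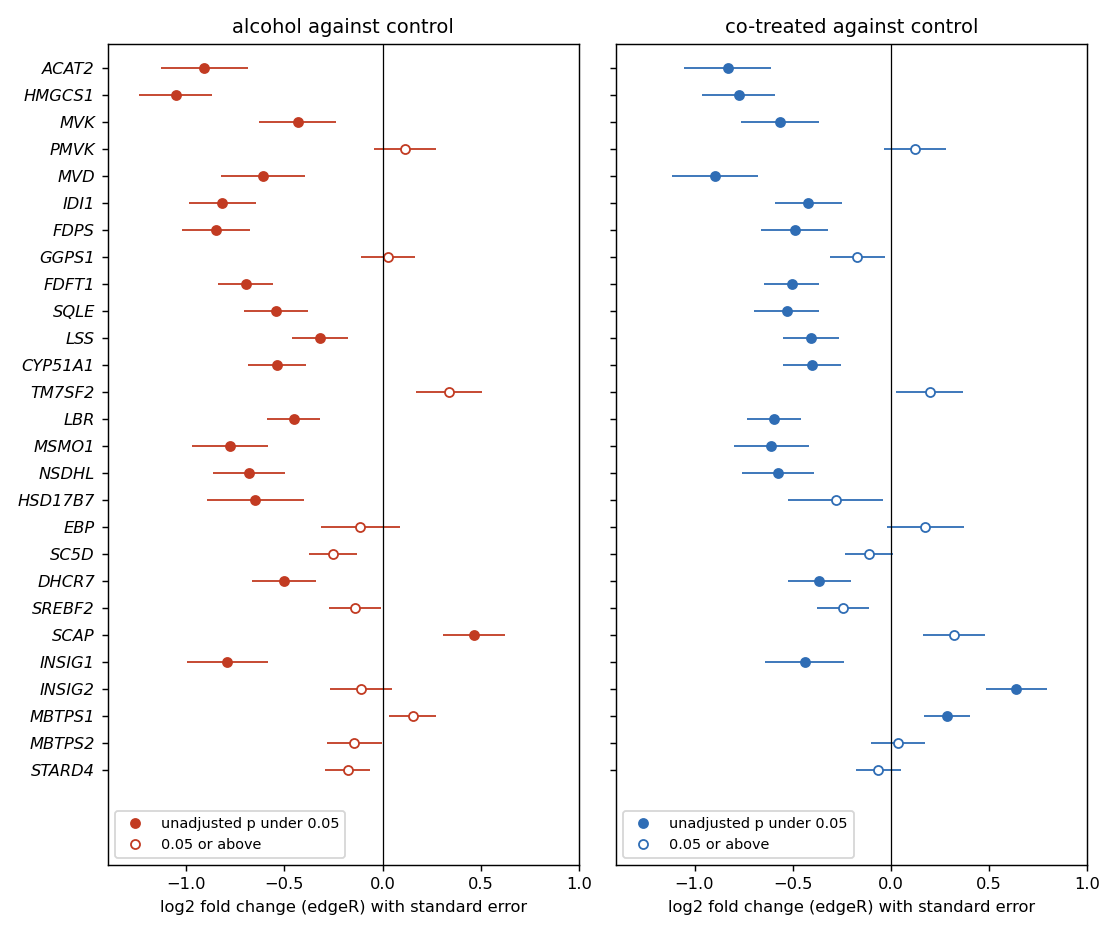
The log2 fold change of each member by edgeR is drawn with its standard error, alcohol against control on the left and co-treated against control on the right. Filled points have an unadjusted p under 0.05, and both panels use the same 2 control libraries. The enzymes from ACAT2 to DHCR7 lie mostly left of 0, down to -1.05 for HMGCS1, while SCAP reaches 0.47 on the left and INSIG2 0.64 on the right.

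The genes that control the pathway did not share one pattern. SREBF2, which encodes SREBP2 and holds the sterol core in its own promoter, had 70.7 and 73.4 FPKM in the control libraries, 71.5 and 62.2 in the alcohol libraries and 67.9 and 57.9 in the co-treated libraries. Its groups overlapped with alcohol, and its log2 fold change was -0.14 (SE 0.13, adjusted p = 0.758) with alcohol and -0.24 (SE 0.13, adjusted p = 0.474) with co-treatment by edgeR. SCAP, its escort, had 17.4 and 19.9 FPKM in the control libraries, 21.1 and 31.7 in the alcohol libraries and 23.4 and 24.1 in the co-treated libraries. All exposed libraries were above both controls and the highest was alcohol replicate 2. By edgeR the log2 fold change of SCAP was 0.47 (SE 0.16, adjusted p = 0.280) with alcohol and 0.32 (SE 0.16, adjusted p = 0.432) with co-treatment, and the first was 0.71 without alcohol replicate 1, while leaving out alcohol replicate 2 made it 0.19. SCAP stood at 0.246 and 0.272 of SREBF2 in FPKM with no treatment, 0.295 and 0.509 with alcohol and 0.344 and 0.416 in co-treated libraries.

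The retention proteins are INSIG1 and INSIG2. INSIG1 had 22.2 and 29.2 FPKM in the control libraries, 18.2 and 12.1 in the alcohol libraries and 17.2 and 21.3 in the co-treated libraries. Every exposed library was below both controls, as in most enzymes, and the log2 fold change by edgeR was -0.79 (SE 0.21, adjusted p = 0.170) with alcohol and -0.44 (SE 0.20, adjusted p = 0.394) with co-treatment. The alcohol value was -0.48 without alcohol replicate 2, and the co-treated value was -0.26 without control replicate 2 and -0.28 without co-treated replicate 1. INSIG2, whose gene is not a classical target of SREBP2, had 16.5 and 14.4 FPKM in the control libraries, 15.6 and 13.8 in the alcohol libraries and 26.9 and 22.9 in the co-treated libraries. The alcohol and control libraries overlapped, while both co-treated libraries were above all others. Against alcohol, INSIG2 with losartan was 68.2% higher, a log2 fold change of 0.75 (SE 0.15, adjusted p = 0.444), and against control it was 0.64 (SE 0.15, adjusted p = 0.0924), by edgeR. Leaving out 1 library moved the difference from alcohol from 0.63 to 0.87, with an adjusted p of 0.172 to 0.990. INSIG1 stood at 1.35 and 2.02 times INSIG2 in FPKM with no treatment, at 1.17 and 0.871 with alcohol and at 0.641 and 0.928 in co-treated libraries.

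MBTPS1, the first protease to cut SREBP2, had 18.1 and 19.5 FPKM in the control libraries, 20.2 and 22.8 in the alcohol libraries and 24.6 and 22.7 in the co-treated libraries. All exposed libraries were above both controls, and its edgeR log2 fold change was 0.15 (SE 0.12, adjusted p = 0.698) with alcohol and 0.29 (SE 0.12, adjusted p = 0.334) with co-treatment. MBTPS2, which makes the second cut, ranged from 9.91 to 12.9 FPKM with its groups overlapping. STARD4, the sterol carrier, ranged from 62.7 to 73.9 FPKM, with a log2 fold change of -0.18 with alcohol and -0.07 with co-treatment, and edgeR adjusted p of 0.624 and 0.868.

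**Figure D4:**
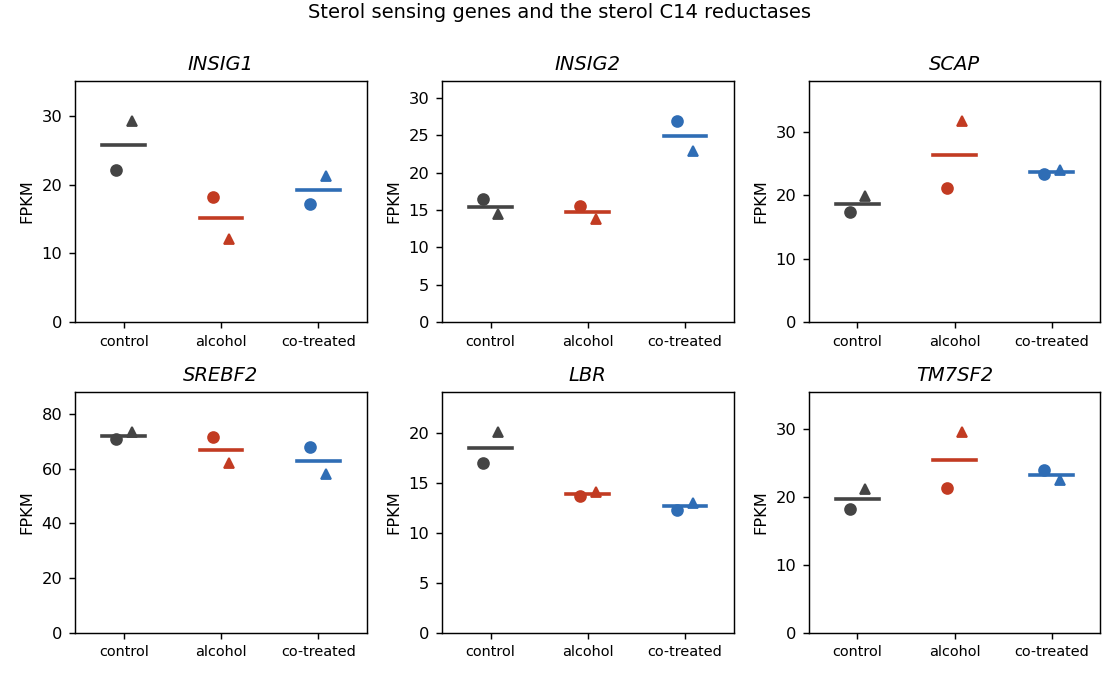
FPKM of 6 genes is shown for each library (circles replicate 1, triangles replicate 2), with a bar at the mean of each group and each vertical axis starting at 0. INSIG1 and LBR lie lower in all exposed libraries, SCAP and TM7SF2 higher, SREBF2 between 57.9 and 73.4 in all 6, and INSIG2 at 22.9 and 26.9 in the co-treated libraries against 13.8 to 16.5 in the others.

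Losartan was the only labelled difference between co-treated and alcohol hiPSC-CMs. None of the members was called there by edgeR (0.0134% of all genes were), by DESeq2 or by limma on log2(FPKM + 1). Of the 27 members 19 had a higher mean with losartan and 8 a lower one. Of all 14926 genes tested 7510 were higher and 7416 lower. The median log2 fold change of the members was 0.13, while that of all genes was 0.0023. At an unadjusted p under 0.05 there were 2, IDI1 and INSIG2, both higher, which is 7.41% of the members against 5.55% of all genes. The number at that level moved with the library left out, in fits where 1 group held 1 library. The median of the members was 0.03 without alcohol replicate 2 and 0.04 without co-treated replicate 2, while leaving out alcohol replicate 1 made it 0.28. The alcohol libraries serve in this comparison and in that with control, so a low value in them moves both.

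Genes beside the pathway were read from lists of known function, also chosen with earlier results of these data known. Of 12 genes in a list of lipogenesis under SREBP1, which also holds SREBF1 itself and the lipid handling genes LPIN1, FABP3 and TMEM41B, 6 were lower with alcohol at an unadjusted p under 0.05 by edgeR (against 5.78% of all genes) and none was higher. SCD, the desaturase, had the lowest log2 fold change of these, -0.96 (adjusted p = 0.0684), with 81.4 and 88.8 FPKM in the control libraries, 54.0 and 35.0 in the alcohol libraries and 73.0 and 71.7 in the co-treated libraries. FASN, fatty acid synthase, stood at -0.71, FADS2 at -0.58, ACLY, which makes cytosolic acetyl-CoA from citrate, at -0.57, ELOVL6 at -0.47 and FADS1 at -0.36, all with edgeR adjusted p above 0.05. With co-treatment 3 of these 12 were lower (25.0%, against 6.37% of all genes), FASN at -0.65, ACLY at -0.53 and FADS2 at -0.37.

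The isoprenoid branch that leaves the route at farnesyl diphosphate, with 10 genes of dolichol, ubiquinone and protein prenylation, had 1 lower with alcohol at an unadjusted p under 0.05, FNTB (-0.67), and 1 higher with co-treatment, COQ2 (0.52), each 10.0% of the list and near the shares of all genes (5.78% and 6.26%). Of 9 genes of sterol sensing and regulated degradation in the endoplasmic reticulum, TMEM97 (-0.52) and RNF145 (-0.34) were lower with alcohol at that level (22.2%, against 5.78% of all genes) and none with co-treatment. Among 10 genes of sterol handling outside it, 2 were higher in each comparison (20.0%, against 5.27% of all genes with alcohol and 6.26% with co-treatment). STARD3 (0.51) and SCARB1 (0.40) were higher with alcohol, and LIPA (0.46) and SCARB1 (0.53) were higher with co-treatment. CYB5A, an electron carrier for sterol desaturation, was higher with co-treatment (0.44). None of the genes named from these lists was called in either comparison by edgeR.

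When members were divided by their promoters, SREBF2 alone held the sterol core, and its log2 fold change over all exposed libraries was -0.19. The median of the 23 without it was -0.43. CCAAT was present in 10 of the 13 members with a window that were lower over all exposed libraries at an unadjusted p under 0.05 (76.9%), and in 5 of the 11 others (45.5%). At least 2 boxes were found in 8 of the 13 (61.5%) and in 2 of the 11 (18.2%), against 13.2% of the promoters of genes tested. No test was made of this split. HMGCS1, MVK and NSDHL, printed above, belong to the first of these groups and SREBF2 to the second.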

How the data were processed

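RNA was sequenced in 6 libraries, and samples were grouped by the treatment in their labels. The authors deposited, per gene and library, an expected count estimated from the reads and the FPKM, which is that count scaled by gene length and library. The submitters' processing notes name HISAT2 2.0.4, Bowtie2 2.2.5, RSEM 1.2.12 and hg38. A deposited length column served no test. Of the expected counts 33.6% to 34.2% per library were not whole, and they were rounded.

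Here edgeR 4.0.16 (R 4.3.3) fitted a quasi-likelihood model to the 3 groups, with TMM normalization and filterByExpr. Tests were two-sided with Benjamini-Hochberg adjustment over 14926 genes, and the script was tested on simulated data. A count of 3 equals 0.594 to 0.612 CPM, for counting error only. The comparisons were alcohol, co-treated and their mean against control, and co-treated against alcohol. Alternatives were DESeq2 1.42.0, its size factors in edgeR, no filter, a minimum of 10 counts in all libraries, a replicate block, only the groups compared, limma 3.58.1 on log2(FPKM + 1) and log2(FPKM + 0.1), and each library left out. The members and lists were chosen with earlier results of these data known, so no list was tested. All members are named, and full values are given where an unadjusted p under 0.05 was found in any comparison. Neighboring genes are named at that level with alcohol or co-treatment against control, except for some that are not reported here. Of 12 symbols listed for sterol sensing and degradation, 9 were found, and TRC8, POST1 and SPRING1 were not found as symbols.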

Additional observations from a re-analysis of the deposited data

How the results depend on the processing

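No direction of a member named with an unadjusted p under 0.05 turned under any of the 14 alternatives. Called members with alcohol, 0 by edgeR, became 5 by DESeq2, 1 with at least 10 counts in every library and 1 (HMGCS1) with the replicate block, and ran from 0 to 12 with each library left out. With co-treatment they were 1 (INSIG2, adjusted p = 0.0480) with the block and 4 with only the groups compared, and 0 to 4 with libraries left out. Over all exposed libraries, 2 by edgeR, they were 6 by DESeq2, 0 with no filter, 5 with at least 10 counts, 7 with the block and 0 with either limma pseudocount, and 0 to 12 with libraries left out. Members lower at an unadjusted p under 0.05 ran from 9 to 16 with alcohol, from 6 to 15 with co-treatment and from 0 to 1 for co-treated against alcohol with libraries left out, where those at that level in either direction, 2 by edgeR, ran from 1 to 10, and the medians from -0.65 to -0.28 with alcohol and from -0.56 to -0.25 over all exposed. Where a group kept 1 library, it was assumed to vary like the others. Replicate numbers were not taken as pairs: deviations of the same number had correlations over genes of 0.114, -0.016 and 0.041 for control with alcohol, control with co-treated and alcohol with co-treated. The calls of single genes, HMGCS1 and FDFT1 over all exposed libraries, were lost under 6 and 8 of the 14 alternatives, 14 of 28 values in all. Of the 714 values of other genes and comparisons under the alternatives 57 passed the threshold. With 2 libraries a group, absence of a call does not show that levels were alike.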
